A study of Danio rerio with 36 samples.

Results

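Trace amine-associated receptor (taar) genes encode G protein-coupled receptors that detect amines. In fish and mammals most of them are olfactory receptors: each mature olfactory sensory neuron uses one receptor gene, and the many near-identical taar genes lie in tandem arrays and are silent in other cells. Taar1 is the exception in mice, where it acts outside the olfactory epithelium as a receptor for endogenous trace amines. The zebrafish family is greatly expanded, and zebrafish Taar13c is known as a receptor for cadaverine and Taar12h as a receptor for 2-phenylethylamine. Methylation of cytosines in CpG dinucleotides is copied to the new DNA strand by Dnmt1 after replication, so that a gene family that is silent in nearly all cells can be followed through soma and germ line by its methylation level alone.

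The genes described here are the 30 members of the family that were the nearest annotated gene of at least one differentially methylated region (DMR) of mutant sperm, among 20717 genes for which a locus could be built in the same way. The locus of a gene ran from the first to the last DMR within 5000 bp of it, in coordinates of the danRer10 genome, and every CpG of that stretch was used. The 30 genes had 72 such DMRs, of which 57 lay within 5000 bp and 34 overlapped the gene. Of the remaining 15 DMRs, 14 belonged to taar12m and lay between 11388 and 62724 bp away from it. All 72 DMRs had a lower level in mutant than in wild-type sperm. The choice of members used a difference between these males, and nearly all DMRs that the paper reports for mutant sperm are hypomethylated. The lower level is therefore no result about the members.

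DNA was analysed by whole genome bisulfite sequencing in 18 zebrafish of mixed background, 3 in each of 6 groups, with 2 libraries per fish that the authors had merged. The groups were whole bodies of dnmt1 m/m and of dnmt1+/+ fish at 18 days post fertilization (dpf), sperm of dnmt1 m/m and of dnmt1+/+ males of the second generation (G2), and sperm of G4* and of G4+ males of the fourth generation. The m/m fish are homozygous for a viable hypomorphic missense allele of dnmt1, which the labels write as dnmt1-/-, and the labels count the G2 sperm as generation 1. All G4 males are genotypically wild type and descend from mutants, and G4* males have offspring with impaired larval T cell development whereas G4+ males do not. No expression was measured, so the tissues could not be checked against marker genes, and a level in whole body is an average over many cell types in which a change in cell composition and a change within cells cannot be told apart.

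A fish had values at 41.1% to 66.3% of the 23946533 CpGs in the tables. In the taar loci, the median share of CpGs with a value ran from 66.1% to 80.1% in whole body, from 78.8% to 90.5% in G2 sperm and from 87.5% to 91.8% in G4 sperm, and in each of the 18 fish it was above the median over all gene loci. Pooled over the CpGs of all loci the order was reversed, with the taar share below that of all gene loci in each of the 18 fish. In dnmt1+/+ body 1, for example, the pooled share was 43.1% in taar loci, against 46.5% in all gene loci. Members are close paralogs of each other, and reads that could not be placed uniquely were removed at a mapping quality threshold, and the part of this filter in the missing CpGs was not tested. The number of reads behind a value is unknown beyond the authors' minimum of 10, so no counting interval can be given.

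The members form 2 arrays and 1 isolated locus. On chromosome 10, 15 loci of the families taar16, taar18, taar19 and taar20 lay between 40413464 and 40858426, a stretch of 445 kb. On chromosome 20, 14 loci of the families taar1, taar10, taar11, taar12 and taar14 lay between 46143651 and 46404548, a stretch of 260.9 kb. The locus of taar12m (ENSDARG00000074325) lay alone on chromosome 15, from 2087601 to 2088498. The loci were short, with a median of 1016 bp and 30 CpGs, against 12374 bp and 229 CpGs over all gene loci, and held 27.0 CpGs per kb, against 19.1 per kb over all loci. The longest locus was that of taar10 (ENSDARG00000069214), whose gene model carried 14 DMRs. It extended over 81027 bp of chromosome 20, from 46260530 to 46341556. In the current RefSeq annotation 9 other taar genes lie between taar10 and taar14i, among them taar13a to taar13e and taar15, so the CpGs counted under taar10 may include those of other receptor genes. The locus of taar20u on chromosome 10 was also longer than the median gene locus, with 30206 bp and 580 CpGs. Whether it holds other receptor genes was not checked. Of the 64 taar genes of RefSeq, 31 lie on chromosome 10, 1 on chromosome 15 and 32 on chromosome 20, and the 21 members found there by symbol were on the same chromosomes as in these files.

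**Figure D1:**
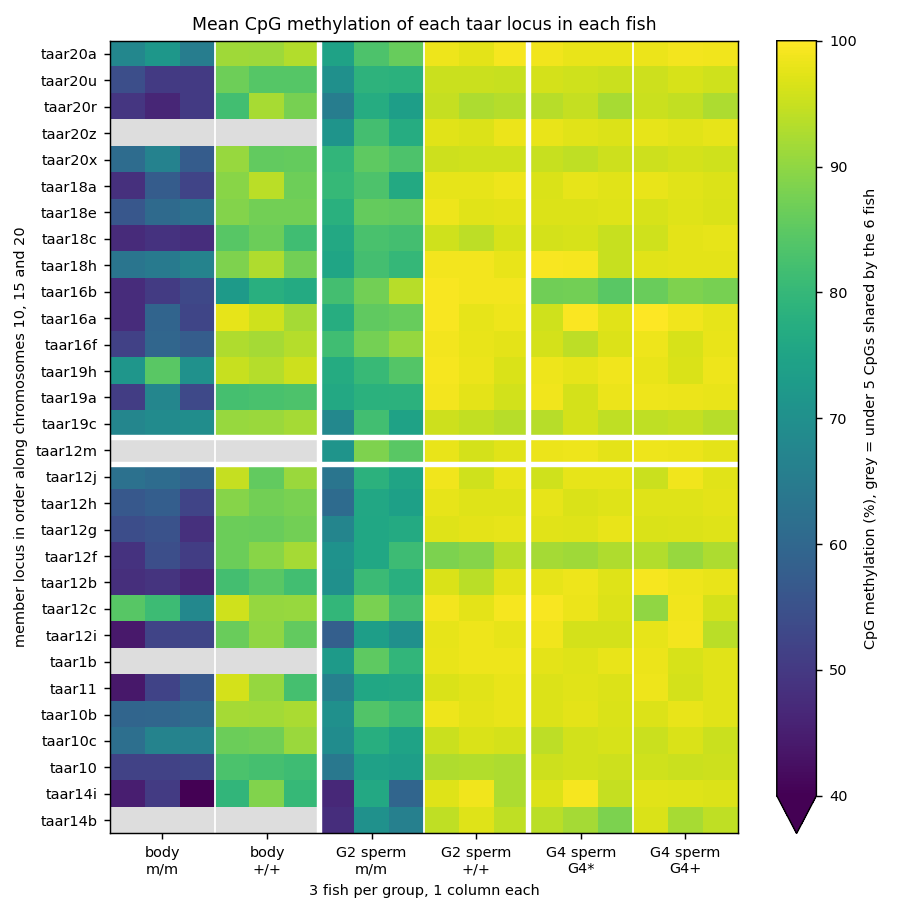
Mean CpG methylation (%) of the 30 taar loci (rows, in order along chromosomes 10, 15 and 20) in each of the 18 fish (columns, 3 per group), over CpGs measured in all 6 fish of a comparison. The dnmt1 m/m bodies and the dnmt1 m/m sperm stand out as the darker columns, and all G4 columns resemble wild-type sperm.

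In wild-type fish the taar loci were heavily methylated in both tissues, and more so in sperm, as were all gene loci by their medians. On the 470 CpGs of 25 loci that had a value in all 18 fish, the median over loci was 77.0% ± 3.3 in dnmt1 m/m sperm and 97.5% ± 0.43 in dnmt1+/+ sperm of G2 males (SD of the fish medians, n = 3 each). It was 57.1% ± 2.0 in dnmt1 m/m bodies and 88.5% ± 1.6 in dnmt1+/+ bodies. In the fourth generation the medians were 96.6% ± 0.46 for G4* and 97.2% ± 0.24 for G4+ males. Sperm was above body at 25 of 25 loci in mutants, by a median of 17.8 percentage points, and at 24 of 25 loci in wild-type fish, by 8.83 points. The loss of methylation in mutants was smaller in sperm than in body at 24 of the 25 loci, with medians of -19.1 points in sperm and -32.4 points in body. Over 19390 gene loci with CpGs measured in all 18 fish, the medians of mutant and wild-type fish differed by -28.3 points in sperm and by -29.8 points in body. By this measure, a difference between medians, the taar loci had -20.5 points in sperm and -31.4 points in body. Wild-type G2 sperm was above wild-type body by 9.90 points over all these gene loci and by 8.98 points over the taar loci. The shares of all gene loci with sperm above body, or with the smaller loss in sperm, are not given. The counts of 25 and 24 loci are therefore no result about the members. The sperm part of these comparisons includes the males on whom the DMRs were called, so it is given without a test.

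The highest levels in dnmt1+/+ G2 sperm were those of taar16b, taar18h and taar12c, with means of 99.1%, 98.6% and 98.6%. The lowest was that of taar12f, the shortest locus, at chr20:46174939-46175114, which had 70.5, 75.8 and 81.1% in the 3 dnmt1 m/m males and 88.2, 89.2 and 93.5% in the 3 dnmt1+/+ males over 10 CpGs. Its CpGs at 46174939 and 46174976 had means of 59.4 and 57.1% in dnmt1+/+ sperm. The 1 kb window from 46175001, which begins after them, had 98.4% over 9 CpGs, so the low level was not that of the whole locus. The next lowest were taar10, with a mean of 92.8%, and taar20r, with 93.6%. The other 27 members lay between 94.6 and 99.1%, so that the range over members in wild-type sperm was narrow.

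At single CpGs, the uniform state of wild-type sperm was replaced by intermediate levels in mutants. Of 1166 CpGs of the taar loci measured in all 6 G2 males, 21.8% were methylated at 90% or more in dnmt1 m/m sperm, against 94.0% in dnmt1+/+ sperm. Intermediate levels from 20 to 90% were found at 76.3% of these CpGs in dnmt1 m/m sperm and at 4.37% in dnmt1+/+ sperm. Levels under 20% remained rare, with 22 CpGs in dnmt1 m/m sperm and 19 in dnmt1+/+ sperm. In whole body, 1.29% of 620 CpGs were at 90% or more in dnmt1 m/m fish, against 48.5% in dnmt1+/+ fish, and 37.6% against 2.58% were under 50%. Levels under 20% were found at 25 of these CpGs in dnmt1 m/m bodies and at 11 in dnmt1+/+ bodies. In sperm the loci were placed by DMRs of these same males, so the shift there is only a description. The shares over the CpGs of all gene loci are not given, so the shift in either tissue is no result about the members.

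**Figure D2:**
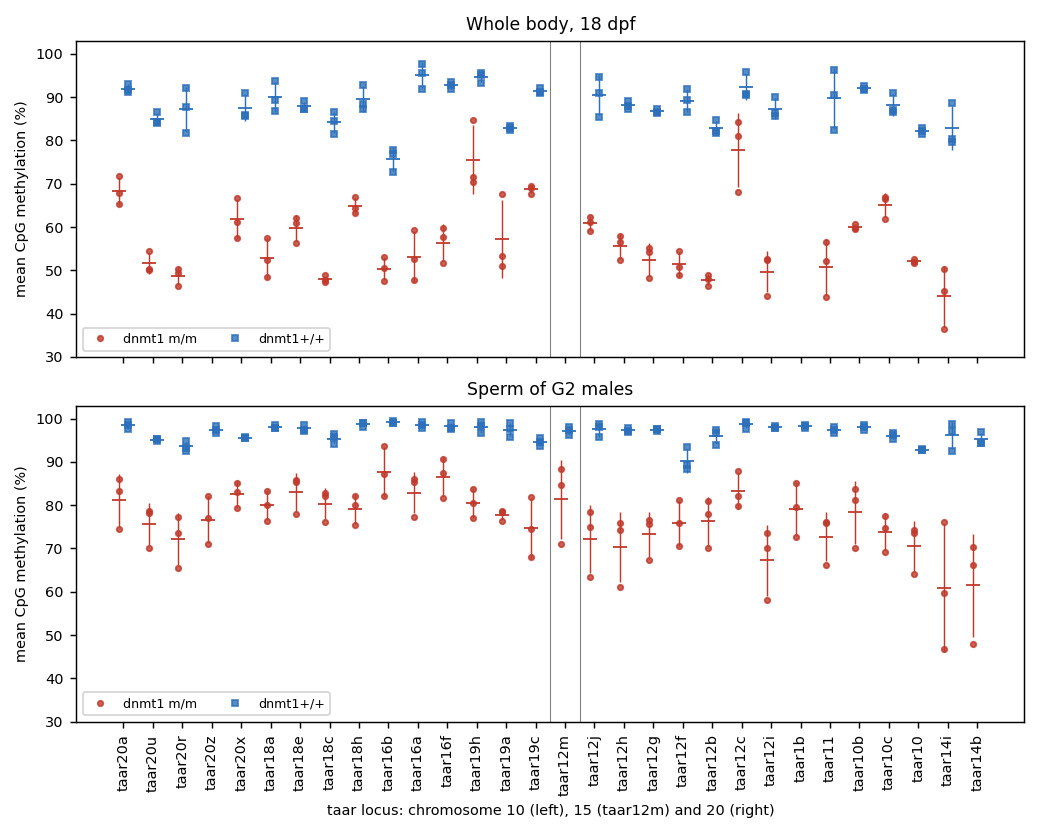
Mean CpG methylation (%) of each taar locus in whole body (top) and in sperm of G2 males (bottom). Points are the 3 dnmt1 m/m fish (circles, left) and the 3 dnmt1+/+ fish (squares, right) of each locus, with the mean and the SD as a bar. The 2 genotypes do not overlap at any locus shown, nor at 99.8% of all gene loci in either tissue, so this is no result about the members. In sperm the loci were placed by DMRs of these same males. The m/m points spread over a wider range in sperm than the +/+ points.

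Whole body fish were not used to place the loci, so the test there uses other fish than the choice of members. The members were chosen by a DMR of mutant sperm, however, and the test compares the same genotypes. It is therefore not independent of that choice. Of the 26 loci with at least 5 CpGs measured in all 6 fish, 24 were lower in dnmt1 m/m bodies and 0 were higher, by limma on the logit of the locus mean at a Benjamini-Hochberg adjusted p under 0.05 over 19884 gene loci and at least 20 percentage points between the genotypes. Over all gene loci tested, 94.7% were lower by the same rule, so the members followed the whole genome in this respect. Their median difference was -32.3 points, with quartiles at -37.0 and -25.4, and all gene loci had a median of -28.5 points. The genotypes did not overlap at any of the 26 loci, nor at 99.8% of all loci. The 4 members that had fewer than 5 CpGs were taar20z, taar12m, taar1b and taar14b. For a single locus, an exact permutation test of 3 against 3 fish cannot give a two-sided p under 0.1, which is the value at each of the 26 loci. When every fish was centred on its own median locus, which shifts the median difference of all loci to 0.12 points, the members had a median of -2.82 points. Of the 26 members, 9 (34.6%) had an unadjusted p under 0.05 in limma, against 45.6% of all gene loci. After centring 0 members were called, but the 20-point minimum was kept and the share of all gene loci called is not given. This 0 is therefore no result about the members.

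The largest losses in whole body were at taar16a, taar14i and taar11. The taar16a locus (ENSDARG00000054237, chr10:40674348-40674600) had 47.7, 59.4 and 52.5% in dnmt1 m/m bodies, against 97.7, 95.6 and 91.9% in dnmt1+/+ bodies. That is a difference of -41.9 points (adjusted p = 9.2e-05, limma). At taar14i (ENSDARG00000069211, chr20:46351197-46351904), the levels were 45.2, 50.4 and 36.4% in dnmt1 m/m bodies and 79.5, 88.7 and 80.3% in dnmt1+/+ bodies, a difference of -38.9 points (adjusted p = 0.00026, limma). The m/m body with 36.4% was the lowest value of any member in any fish. At taar11 (ENSDARG00000022938, chr20:46228048-46228974), 5 CpGs gave 43.9, 52.1 and 56.6% in dnmt1 m/m bodies, against 96.1, 90.6 and 82.3% in dnmt1+/+ bodies, a difference of -38.8 points (adjusted p = 0.0014, limma). In all these loci every mutant lay below every wild-type fish.

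The smallest losses were at taar12c, taar19h and taar19c, and those of taar12c and taar19h fell short of the 20-point minimum. The 6 CpGs of taar12c (ENSDARG00000086412, chr20:46202452-46203080) had 84.3, 81.0 and 68.0% in dnmt1 m/m bodies, against 95.7, 90.5 and 90.7% in dnmt1+/+ bodies. The difference was -14.5 points (adjusted p = 0.0093, limma). At taar19h (ENSDARG00000094170, chr10:40761372-40761996), the levels were 71.6, 84.6 and 70.4% in dnmt1 m/m bodies and 95.0, 93.4 and 95.4% in dnmt1+/+ bodies, a difference of -19.1 points (adjusted p = 0.00061, limma). The second mutant was the highest of the 3, and without it the difference was -23.6 points and was called. At taar19c, a locus with 32 CpGs, the levels were 67.6, 68.9 and 69.4% in dnmt1 m/m bodies and 90.8, 91.1 and 92.0% in dnmt1+/+ bodies (difference -22.6 points, adjusted p = 3.8e-07, limma). The fish of each group lay within 2 points of each other there.

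The receptor gene with a known amine, taar12h (ENSDARG00000094237, chr20:46149491-46153831), was close to the middle of the family in body. Over 21 CpGs it had 56.5, 57.8 and 52.4% in dnmt1 m/m bodies, against 89.0, 87.3 and 87.9% in dnmt1+/+ bodies, a difference of -32.5 points (adjusted p = 1.0e-06, limma). The member with the most CpGs, taar10, had 51.7, 51.9 and 52.6% over 204 CpGs in dnmt1 m/m bodies and 82.95, 82.2 and 81.4% in dnmt1+/+ bodies, a difference of -30.1 points (adjusted p = 2.6e-07, limma). The 3 fish of a group differed by less than 2 points there.

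By family, all 3 tested taar16 loci, all 4 taar18 loci, all 4 tested taar20 loci, all 3 taar10 loci and the single tested loci of taar11 and taar14 were called lower in m/m bodies. Of the taar12 family 6 of 7 tested loci were called, and of taar19 2 of 3. Median differences ran from -22.6 points for taar19 to -36.3 for taar16 among families with at least 3 tested loci. By chromosome, 13 of 14 loci on chromosome 10 and 11 of 12 on chromosome 20 were called, with medians of -26.9 and -33.3 points. By the same rule 94.7% of all gene loci were called lower, so these counts are no result about a family or an array. The ranges of both arrays overlapped widely, from -41.9 to -19.1 points on chromosome 10 and from -38.9 to -14.5 points on chromosome 20.

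In windows of 1 kb that overlapped a taar locus, 59 of 62 were lower in m/m bodies, where 81.7% of all windows were. The 2 windows with the largest difference lay in taar20u and taar12i. In the taar20u window at chr10:40442001-40443000, the levels were 49.6, 39.7 and 56.6% in dnmt1 m/m bodies and 93.9, 93.7 and 93.0% in dnmt1+/+ bodies (difference -44.9 points, adjusted p = 2.0e-05, limma). In the taar12i window at chr20:46210001-46211000, they were 37.2, 36.6 and 42.3% in dnmt1 m/m bodies and 83.1, 87.9 and 76.9% in dnmt1+/+ bodies (difference -43.9 points, adjusted p = 2.7e-05, limma). The taar12i window was also the one with the largest difference of the family in G2 sperm.

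In sperm of G2 males the DMRs that define the loci were called on the same fish, so the values are a description. All 30 loci were lower in dnmt1 m/m sperm, with a median of 77.2% in dnmt1 m/m males and 97.4% in dnmt1+/+ males and a median difference of -19.5 points. The difference reached 20 points at 11 of the 30 loci, where 80.4% of all gene loci were lower by that rule, and all gene loci had a median of -25.9 points. Of the members, 26 of 30 had a smaller loss than the median gene locus. Odorant receptor genes of the or family, which are also clustered, silent outside single olfactory neurons and built from DMRs in the same way, had a median of -26.6 points over 62 loci, and olfactory receptor genes of the C family (olfc), the fish relatives of mammalian V2R receptors, had -25.7 points over 12 loci. In whole body the medians were -31.6 points over 60 or loci and -29.2 points over 12 olfc loci, beside the -32.3 points of the taar loci.

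**Figure D3:**
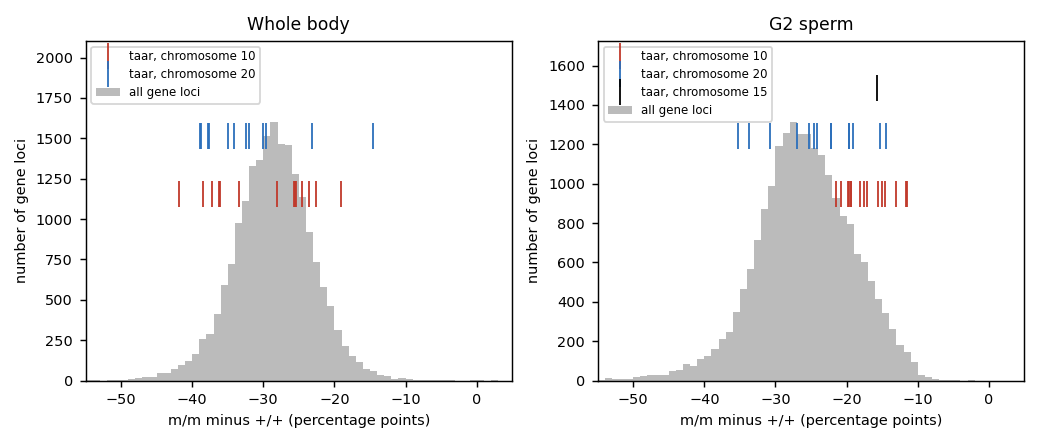
Differences between dnmt1 m/m and dnmt1+/+ (percentage points) of all gene loci (grey bars, number of loci per 1-point bin) and of single taar loci (ticks, red for chromosome 10, blue for chromosome 20 and black for chromosome 15), in whole body (left) and G2 sperm (right). In body the members spread over the range of all loci, and in sperm the chromosome 10 members lie at the side of smaller losses, between -21.4 and -11.5 points.

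In sperm the values of the arrays overlapped less than in body. On chromosome 10, the median difference was -17.6 points, from -21.4 to -11.5, and 2 of 15 loci reached 20 points. On chromosome 20, the median was -23.2 points, from -35.3 to -14.5, and 9 of 14 loci reached 20 points. The order was the same in each mutant male: the median loss on chromosome 10 was -21.1, -14.7 and -14.2 points in the 3 dnmt1 m/m males, that on chromosome 20 was -29.4, -18.8 and -21.0 points, and that over all gene loci was -32.7, -21.6 and -23.3 points. Within a male 14 or 15 of the 15 chromosome 10 loci lost less than the chromosome 20 median, whereas in body 8 or 9 of the 14 tested loci of chromosome 10 did. Since the arrays were set apart after their values were seen, and the males placed the loci, no test is given.

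The largest differences in G2 sperm were at taar14i, taar14b and taar12i, all on chromosome 20. At taar14i, the 3 dnmt1 m/m males had 46.8, 76.2 and 59.6%, and the 3 dnmt1+/+ males had 97.2, 98.6 and 92.6%, a difference of -35.3 points. At taar14b (ENSDARG00000091733, chr20:46403729-46404548), they had 47.9, 70.3 and 66.2% in dnmt1 m/m sperm and 94.4, 97.0 and 94.3% in dnmt1+/+ sperm, a difference of -33.7 points. At taar12i (ENSDARG00000086268, chr20:46205995-46211207), over 37 CpGs, they had 58.1, 73.6 and 70.1% in dnmt1 m/m sperm and 97.8, 98.4 and 97.9% in dnmt1+/+ sperm, a difference of -30.8 points. The first mutant male was the lowest at all these loci, as it was in its median over the family, at 70.7%, against 81.4 and 78.4% in the other mutant males. Its median over all gene loci, 62.4%, was likewise the lowest of the 3, so the number of members past 20 points was 7 without this male and 17 without the second.

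The smallest differences were at taar16b, taar16f and taar20x, all on chromosome 10. At taar16b (ENSDARG00000094626, chr10:40670227-40670907), the levels were 82.1, 87.3 and 93.6% in dnmt1 m/m sperm and 99.3, 99.0 and 99.1% in dnmt1+/+ sperm, a difference of -11.5 points. At taar16f (ENSDARG00000092171, chr10:40692242-40693527), they were 81.7, 87.5 and 90.5% in dnmt1 m/m sperm and 99.0, 97.9 and 97.6% in dnmt1+/+ sperm, a difference of -11.6 points. At taar20x (ENSDARG00000093829, chr10:40564149-40566759), over 39 CpGs, they were 79.4, 85.1 and 83.1% in dnmt1 m/m sperm and 95.5, 95.6 and 95.7% in dnmt1+/+ sperm, a difference of -13.0 points. Even at these loci no mutant male reached the lowest wild-type male, and the genotypes did not overlap at 99.8% of all gene loci in G2 sperm.

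The order of the members by their loss was shared only in part between sperm and body. The taar16 family had the largest median loss of its array in body, -36.3 points, and the smallest in sperm, -11.6 points, with 3 loci in each. taar12f lost -37.8 points in body and -14.5 in sperm, whereas taar14i was among the 3 largest losses in both tissues. taar16b and taar20x, among the 3 smallest losses in sperm, lost -25.4 and -25.7 points in body, less than the median member. Across the 26 loci tested in body, Pearson's r between the differences in both tissues was 0.30 and Spearman's rho 0.22. The loci of 1 array share their neighbourhood and all share the same fish, so this is a description. CpG density of the loci was as weakly related to the difference, with Pearson's r of 0.23 over 26 loci in body and 0.27 over 30 loci in sperm.

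The arrays were also described by all 1 kb windows between their first and last locus, in place of the DMR-defined loci. In G2 sperm, 102 such windows on chromosome 10 had a median difference of -19.2 points, the 500 kb on either side had -21.3 and -23.5 points, and the whole chromosome had -24.3 points. On chromosome 20, 98 windows of the array had -25.1 points, its flanks had -24.7 and -21.5 points, and the chromosome had -25.5 points. In whole body the arrays had the larger losses, with -30.9 points on chromosome 10, against -26.9 and -28.8 in its flanks, and -31.3 points on chromosome 20, against -25.3 and -26.1 in its flanks. The whole chromosomes had -27.9 points for chromosome 10 and -28.1 points for chromosome 20 in body. The difference between arrays and flanks was not tested, and the windows within an array are not independent of each other. In sperm they include the windows of the loci and come from the males on whom the DMRs were called. The order of the arrays in these windows is therefore no separate support for the split by chromosome.

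**Figure D4:**
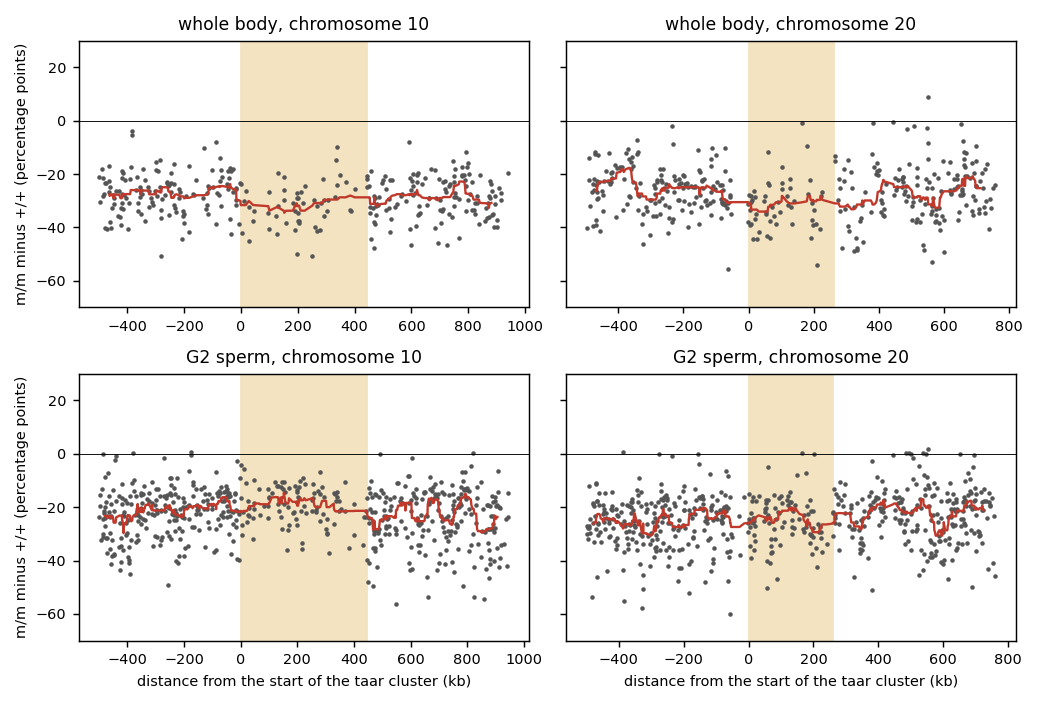
Difference between dnmt1 m/m and dnmt1+/+ (percentage points) of 1 kb windows with at least 5 CpGs (points) along the taar arrays (shaded) and the 500 kb on each side, by distance from the start of the first taar locus (kb), in whole body (top) and G2 sperm (bottom). The red line is the running median over 25 windows, which lies below its flanks within both arrays in body and stays near the median of -19.2 points within the chromosome 10 array in sperm.

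One stretch within the taar loci was nearly free of methylation in every fish, where it was measured. It was found by a search for CpGs under 20% in dnmt1+/+ G2 sperm, so its low level there was set by the choice. In the taar10 locus, 28 consecutive CpGs from 46309567 to 46310413 on chromosome 20, a run of 847 bp, averaged between 0 and 1.45% in the dnmt1 m/m bodies, between 0.48 and 2.99% in the dnmt1+/+ bodies, at most 0.39% in dnmt1 m/m sperm and at most 0.67% in dnmt1+/+ sperm of G2 males. In G4 males it averaged 0% in G4* sperm and between 0.23 and 1.143% in G4+ sperm. These averages are over the CpGs with a value in each fish, which differ between fish. Only 10 of the 28 CpGs were measured in all 6 bodies, 12 in all 6 G2 males and 3 in all 6 G4 males. The last CpG, at 46310413, had 28.6% in the second G4+ male. Over CpGs measured in all 6 fish of a comparison, the rest of the taar10 locus had 54.7% ± 0.45 in dnmt1 m/m bodies and 86.3% ± 0.83 in dnmt1+/+ bodies. In G2 sperm this rest had 72.8% ± 5.9 in dnmt1 m/m males and 95.6% ± 0.16 in dnmt1+/+ males (SD, n = 3 each). The low level of taar10 in wild-type sperm therefore came in part from this run. The gene part it lies in could not be read from the files.

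The comparison of G4* with G4+ sperm asks whether males that pass on the T cell phenotype differ at these loci from males that do not. All 30 loci could be tested and 0 were called by limma, while 0.0194% of 20568 gene loci were called lower and 0.0146% higher. An unadjusted p under 0.05 in limma was found at 0 of the 30, beside 6.43% of all gene loci. Whether these shares differ was not tested, so neither count is a result about the members. The loci had medians of 97.0% for G4* and 97.1% for G4+ males, and the differences ran from -2.93 to 3.20 points with a median of -0.13 points. The levels of G4* and G4+ males did not overlap at 1 locus, where 11.3% of all gene loci do not overlap. Both medians were close to the 97.4% of dnmt1+/+ G2 sperm and far above the 77.2% of dnmt1 m/m G2 sperm.

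The most positive differences were at taar12c, taar12g and taar19h. taar12c had 99.3, 98.3 and 96.7% in G4* sperm, against 90.1, 98.6 and 96.1% in G4+ sperm, a difference of 3.20 points (adjusted p = 0.91, limma). It rested on the first G4+ male and on adjacent CpGs at the end of the locus. At the CpG at position 46203078 of chromosome 20, the levels were 100, 100 and 87.5% in G4* sperm, against 52.9, 94.1 and 62.5% in G4+ sperm, and the 1 kb window that holds it had the largest difference of the 114 windows tested, 12.4 points (adjusted p = 0.92, limma). taar12g (ENSDARG00000087419, chr20:46161159-46167819), the locus without overlap, had 97.3, 97.1 and 97.9% in G4* sperm, against 96.5, 96.8 and 97.1% in G4+ sperm over 94 CpGs, a difference of 0.62 points (adjusted p = 0.85, limma). taar19h had 98.6, 97.7 and 98.6% in G4* sperm, against 98.0, 96.7 and 98.5% in G4+ sperm, a difference of 0.57 points (adjusted p = 0.98, limma).

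The most negative differences were at taar14b, taar16f and taar16a. taar14b had 93.9, 92.0 and 88.3% in G4* sperm, against 96.6, 92.0 and 94.3% in G4+ sperm, a difference of -2.93 points (adjusted p = 0.90, limma). taar16f had 96.1, 94.1 and 96.7% in G4* sperm, against 98.5, 96.3 and 98.0% in G4+ sperm, a difference of -1.94 points (adjusted p = 0.83, limma). taar16a had 95.8, 99.7 and 97.4% in G4* sperm, against 100, 98.8 and 97.8% in G4+ sperm, a difference of -1.25 points (adjusted p = 0.99, limma). The groups overlapped at each of these loci, and with 3 males per group differences of this size were not detectable beyond the spread between males.

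taar16b was the lowest member in G4 sperm, with 87.1, 87.3 and 84.7% in G4* sperm, against 86.2, 88.4 and 87.7% in G4+ sperm. A single CpG at position 40670260 of chromosome 10 had 0% in all 6 G4 males, and without it the remaining 8 CpGs had 97.2% ± 1.6 in G4* sperm and 98.4% ± 1.2 in G4+ sperm (SD, n = 3 each). The CpG was not measured in all 6 G2 males. It had 43.5, 0 and 52.9% in the dnmt1 m/m males, and 47.4 and 0% in the dnmt1+/+ males that had a value. It was therefore left out of the G2 sperm level of taar16b and kept in the G4 sperm level. The ranks of taar16b in G2 and in G4 sperm thus rest on different CpGs.

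Of the 1461 CpGs of the taar loci with a value in all 6 G4 males, 98.2% differed by less than 10 points between G4* and G4+ sperm, and 2 by 20 points or more, both in taar12c and both higher in G4* sperm. In 1 kb windows, 0 of 114 were called by limma and 4 had an unadjusted p under 0.05, as did 5.59% of all windows, where 0.0151% of all windows were called lower and 0.00734% higher. No DMR of the G4 comparison overlapped a taar locus. Some members lie on chromosomes that held no such DMR at all. The share of all gene loci that such a DMR overlapped is not given, so its absence is no result about the members.

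**Figure D5:**
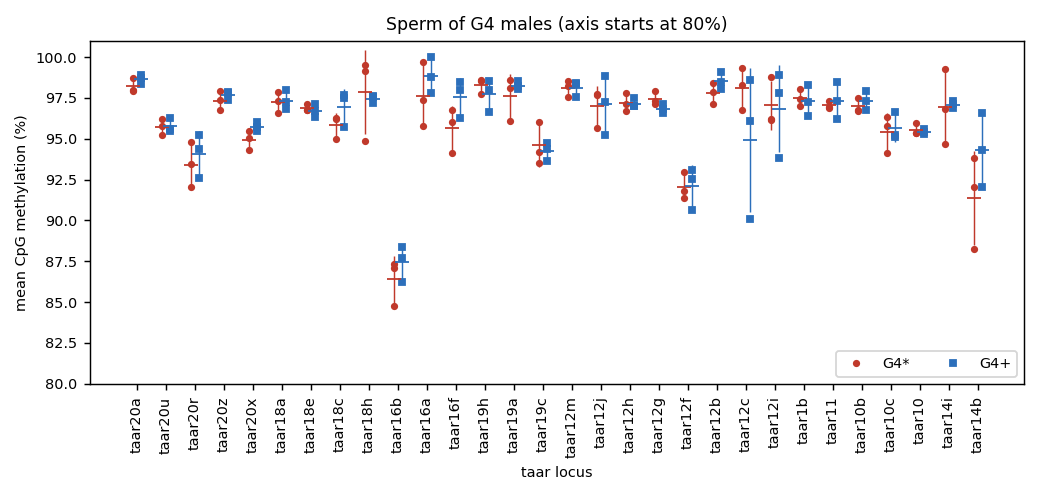
Mean CpG methylation (%, axis from 80%) of the 30 taar loci in sperm of G4* males (circles, left) and G4+ males (squares, right), 3 males each, with the mean and the SD as a bar. The groups overlap at all loci but taar12g, and taar16b is low in all 6 males.

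Other genes of the olfactory pathway followed the genome in whole body. They were taken from a list of 34 that holds the olfactory G protein, adenylyl cyclase and cyclic nucleotide-gated channel genes, olfactory transcription factors and amine-degrading enzymes. With 21 of them measured, 20 were lower in m/m bodies, as were 94.7% of all gene loci, with a median difference of -28.6 points, and 0 were higher. In G4 sperm 0 of 21 were called by limma, and the differences ran from -0.999 to 1.69 points. An unadjusted p under 0.05 in limma was found at 3 of the 21, beside 6.43% of all gene loci, and whether these shares differ was not tested. The 3 were gng13b, ebf1b and ebf1a, with differences of -0.89, -0.999 and 0.77 points (adjusted p = 0.53, 0.73 and 0.69, limma). They did not share a direction. In G2 sperm their median was -24.4 points, which, as for the receptors, describes genes that carry a DMR of these males.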

How the data were processed

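The authors trimmed reads with cutadapt 1.9.1, mapped them to bisulfite-converted danRer10 (GRCz10) with BWA 0.7.12, removed duplicates with Picard 1.136, merged the 2 libraries of a fish with SAMtools 1.3.1, and set CpGs with fewer than 10 reads or with a variant allele frequency of at least 0.25 to missing. The deposited single-CpG values are fractions of methylated reads from 0 to 1, given here as percent, and their depth is unknown. The deposited DMR tables give positions, distance to the nearest gene (Ensembl gene models) and other columns on the authors' own comparison, of which the p-values were not used. Tables with the authors' own tests of G2 regions in the fourth generation, and a table of other loci without taar genes, were not used.

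Members were the genes whose symbol starts with taar. A fish's level was the mean over those CpGs of the locus that were measured in each of the 6 fish compared. Loci with 5 or more of them entered limma 3.58.1 in R 4.3.3, run on the logit (offset 0.01) of the level, over all gene loci built the same way, and called at an FDR under 5% with at least 20 points. Only the 6 fish of a comparison entered a fit. The p-values rest on the spread between fish, which limma pools in part over all loci. For the gene loci in G2 sperm the pooling was complete, with the same standard error of 0.222 on the logit scale at every member. The p-values there do not reflect the spread at a single locus. The fit was also run on simulated data with only 200 loci lowered and a smaller minimum difference than 20 points. That run does not test the call rule used here. Members and lists were chosen with earlier results of these data known. Genes named with values were those with the 3 largest and 3 smallest differences in body and G2 sperm, the 3 largest differences in each direction in G4 sperm, the 3 highest and lowest levels in wild-type G2 sperm, the member with the most CpGs and taar12h. The split by chromosome and the search for runs of at least 5 CpGs under 20% in wild-type G2 sperm were chosen after seeing the data. In the G4 tables, columns headed Ctrl were taken as G4+ and those headed Pb as G4*, since the study's supplementary tables name them so. The same replicate number did not pair fish. Alternatives tried were the offset, the summary over CpGs, the CpG minimum, the thresholds, the DMRs and CpGs used, centring, a replicate block and leaving out each fish.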

Additional observations from a re-analysis of the deposited data

How the results depend on the processing

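In whole body, 24 members were called lower, and 15 with at least 10 CpGs (of 15 tested), 11 with DMRs that overlap the gene only (of 11), 6 with CpGs outside the G2 DMRs only (of 6) and 0 with each fish centred on its median logit. The first 3 of these tested fewer loci. Leaving out 1 fish gave 24 to 25. In G2 sperm, 11 members reached the threshold, 30 without the minimum difference, 7 with overlapping DMRs only, 4 outside the DMRs and 0 after centring, and 7 (without dnmt1 m/m male 1) to 17 (without male 2) when 1 male was left out. The shares of all gene loci called under these alternatives are not given, so the counts are no result about the members. The 20-point minimum was kept after centring in both tissues. In G4 sperm the count was 0 under all 20 alternatives, with 0 to 2 members at an unadjusted p under 0.05 in limma. In the main setting 6.43% of all gene loci had such a p. Of the body windows, 59 were called, and 16 with at least 10 CpGs (of 17), where 74.5% of all windows of that kind were called lower. After centring, the whole-body differences of taar10, taar12c, taar16b, taar18h, taar19c and taar20x turned to 2.63, 4.31, 9.99, 0.98, 0.61 and 2.03 points, none of them called. The other named body differences kept their sign in every alternative run. In G4 sperm, where nothing was called, 28 of 316 alternative values of the named members changed sign, among them taar14b at 2.08 points with the median over CpGs and taar12g at -0.09 points with CpGs outside the DMRs.

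The replicate number did not pair the fish: the deviations of same-numbered fish correlated at 0.06 or less, and a fit with the replicate block called 24 members in body, 11 in G2 sperm and 0 in G4 sperm. Chosen after seeing the data, CpGs measured in all 18 fish gave a median level of 96.6% in G4* and 97.2% in G4+ sperm, against 96.8% and 97.0%, and all windows of the chromosome 10 and chromosome 20 arrays gave -30.9 and -31.3 points in body, against -30.0 points in windows of the loci. Depth is unknown, 3 fish per group limit every G4 comparison, and the 4 members with fewer than 5 shared CpGs were not tested in body.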

Other observations

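Outside the member loci, the arrays held 5 further runs of at least 5 consecutive CpGs that were under 20% in dnmt1+/+ G2 sperm, 1 on chromosome 10 and 4 on chromosome 20, chosen after their values were seen. The run at chr10:40700775-40701745, 971 bp with 35 CpGs between taar16f and taar19h, averaged between 15.2 and 19.3% in the 3 dnmt1 m/m bodies and between 36.7 and 43.9% in the 3 dnmt1+/+ bodies. In sperm it had at most 1.52% in dnmt1 m/m males and between 2.91 and 2.95% in dnmt1+/+ males of G2, and between 3.76 and 5.04% in G4* and between 4.96 and 7.002% in G4+ males. The run at chr20:46344984-46346210, 1227 bp with 36 CpGs between taar10 and taar14i, had 4.23 to 9.49% in dnmt1 m/m bodies and 23.5 to 33.3% in dnmt1+/+ bodies, against at most 1.88% in dnmt1 m/m sperm and at most 1.49% in dnmt1+/+ sperm of G2. In the fourth generation it had 3.51 to 11.3% in G4* and 3.53 to 15.2% in G4+ males. Within each genotype both stretches had more methylation in body than in G2 sperm. The runs were chosen for a low level in dnmt1+/+ G2 sperm, which favours this order, so it is no result about the tissues. The averages are over the CpGs with a value in each fish, which differ between fish, and no test was run. The other 3 runs, of 5, 12 and 10 CpGs on chromosome 20, averaged at most 18.1% in every fish.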
